A study of Oryza sativa with 4 samples.

Results

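The chilling response of the rice line DC90 was set against that of the line 9311, gene by gene, for 24192 of the 88509 identifiers in the deposited table. DC90 is a chromosome substitution line, a plant that carries donor chromosome segments in the genome of a recurrent parent, and the labels describe it as tolerant of chilling. The recurrent parent 9311, also labelled YD6, is described as sensitive to chilling. Whole seedlings at the 3-leaf stage were taken from 4 groups: DC90 after 36 h of chilling, DC90 before chilling (0 h), 9311 after 36 h of chilling and 9311 before chilling. Each group is 1 RNA-seq library, made from the pooled RNA of 3 replicates, so the values below describe 4 libraries. The difference of responses leaves no residual degree of freedom and could not be tested, and a fit of line and time alone, which would leave 1, was not run. The sources used here do not give the chilling temperature, the donor of the DC90 segments or an unchilled library at 36 h, so effects of chilling cannot be told apart from effects of seedling age and time of day.

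The unit is FPKM, which counts sequenced fragments relative to the length of the gene and to the size of the library. The response of a line is log2((FPKM at 36 h + 1)/(FPKM at 0 h + 1)), and the difference of responses is that of DC90 minus that of 9311. A difference of 1 means that the ratio of 36 h over 0 h was 2-fold higher in DC90. The members are all identifiers beginning with BGIOSGA that reached an FPKM of at least 1 in any of the 4 libraries. Of the 40745 BGIOSGA identifiers, the other 16553 stayed under that limit, and 10729 of those were listed at 0 throughout. Just inside the limit, the 290 members with a highest FPKM of 1 to 1.1 had a median difference of responses of 0.10, between extremes of -1.30 and 1.65. Just outside it, the 265 identifiers with a highest FPKM of 0.9 to 1 had a median of 0.05, between -1.08 and 1.36. The remaining 47764 identifiers of the table begin with EPlOING and are not members. Library totals, recovered from the steps of the values, were 10580163 reads (36 h) and 11709642 reads (0 h) in DC90, against 10901043 reads (36 h) and 11800685 reads (0 h) in 9311.

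Chilling makes membranes less fluid and disturbs photosynthesis, and plants answer with calcium signals and with transcription factors such as the CBF/DREB1 proteins, which switch on protective genes. Rice comes from warm regions and its seedlings are easily injured by cold, and indica cultivars such as 9311 are as a rule more sensitive than japonica ones. Chromosome substitution lines are used to trace a trait of the donor to particular segments. The table does not pair its identifiers with gene names or positions, and 0 of them occurred in the reference gene table, so the genes of these pathways were not picked out.

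Most genes had similar responses in both lines. The difference of responses was under 2-fold for 22195 of the 24192 members, or 91.7%, and under 0.5 on the log2 scale for 16935, or 70.0%. Its median was 0.05, its quartiles were -0.26 and 0.35, and its SD was 0.57. The responses themselves had an SD of 1.08 in DC90 and 1.20 in 9311. A response at least 2-fold above that of 9311 was found for 906 members (3.75%) in DC90, and one at least 2-fold below for 1091 (4.51%). Beyond 4-fold there were 53 above and 132 below. The downward tail was the longer one, with a 1st percentile of -1.69 against a 99th percentile of 1.44. The upward share of the 1997 differences past 2-fold was 45.4%, but it was 52.0% with a pseudocount of 0.1 and 51.9% once the libraries had the same FPKM sum, so which direction was more frequent depends on these settings. With median-of-ratios factors it was 38.5%, and beyond 4-fold it was 28.6%.

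**Figure D1:**
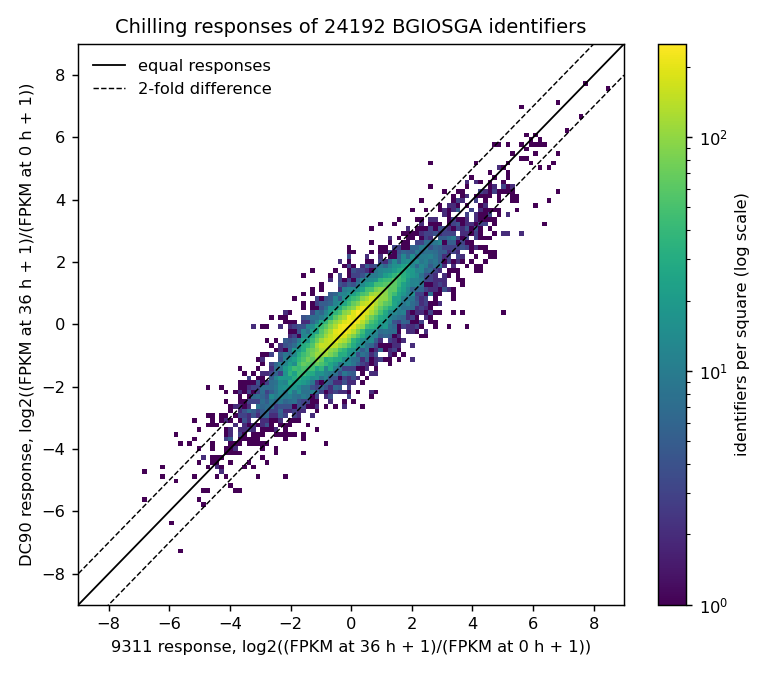
Two-dimensional histogram of the 24192 members, with the 9311 response on the horizontal axis and the DC90 response on the vertical axis (both log2), coloured by the number of identifiers per square on a log scale. The dashed lines mark a 2-fold difference of responses, and 91.7% of the members lie between them.

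The genes past 2-fold fall into kinds by what each line did. Across all members, DC90 was at least 2-fold higher at 36 h than at 0 h for 13.9% and at least 2-fold lower for 14.8%. In 9311, 15.7% were higher and 17.7% lower. Over all members, 1505 were lowered and 1268 raised past 2-fold in 9311 alone, against 856 raised and 785 lowered in DC90 alone. An upward difference past 2-fold was found in 23.1% of the 1505 and 20.9% of the 856. A downward one was found in 31.0% of the 1268 and 32.4% of the 785. These shares are close, so the larger counts for 9311 alone below go with its larger classes. The most frequent kind among the 906 upward differences was a gene lowered past 2-fold in 9311 alone, with 347 members (38.3%). A further 179 (19.8%) were raised in DC90 alone, 133 (14.7%) were lowered in both lines but less in DC90, and 30 were raised in both lines but more in DC90. Among the 1091 downward differences, 393 (36.0%) were raised in 9311 alone and 254 (23.3%) were lowered in DC90 alone. Another 202 (18.5%) were raised in both lines but less in DC90, and 67 were lowered in both but more in DC90. In 211 upward and 167 downward cases neither line passed 2-fold by itself, because small responses of opposite sign add up. Responses past 2-fold in opposite directions were found in 14 members.

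**Figure D2:**
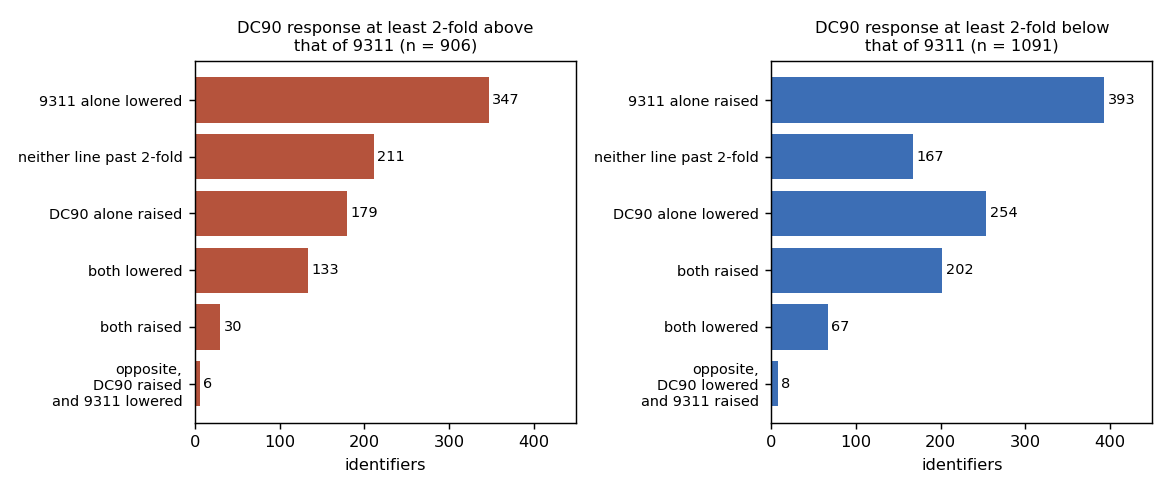
Number of identifiers (horizontal axis) of each kind among the 906 with a DC90 response at least 2-fold above that of 9311 (left) and the 1091 with one at least 2-fold below (right). In both directions the longest bar is a change in 9311 alone, lowered in 347 on the left and raised in 393 on the right. Over all members too, changes in 9311 alone (1505 lowered, 1268 raised) outnumbered those in DC90 alone (856 raised, 785 lowered).

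The kinds were defined from the same 4 values per gene, so the levels behind them are a description, and that the line past 2-fold lies on both sides of the other follows largely from the definition. Genes lowered in 9311 alone had a median FPKM of 3.16 in DC90 at 36 h and 3.44 in DC90 at 0 h, against 1.52 in 9311 at 36 h and 6.96 in 9311 at 0 h. The median in 9311 was thus above that in DC90 before chilling and below it after. Genes raised in 9311 alone had medians of 4.04 at 36 h and 2.98 at 0 h in DC90, against 9.41 at 36 h and 2.11 at 0 h in 9311. Here the lines stood closer at 0 h, and the higher median at 36 h was that of 9311.

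Genes raised in DC90 alone had medians of 7.62 at 36 h and 1.98 at 0 h in DC90, against 3.41 and 2.91 in 9311. Genes lowered in DC90 alone had medians of 1.79 at 36 h and 7.68 at 0 h in DC90, against 3.17 and 3.63 in 9311. The genes raised in both lines but less in DC90 were the most abundant kind at 36 h among the downward differences. They had medians of 19.7 at 36 h and 2.65 at 0 h in DC90, against 44.9 and 1.99 in 9311. Their median response was 1.99 in DC90 and 3.48 in 9311. Genes lowered in both lines but less in DC90 had medians of 4.43 at 36 h and 21.0 at 0 h in DC90, against 2.05 and 30.5 in 9311. They are the mirror image, with median responses of -1.68 in DC90 and -3.03 in 9311.

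Some differences of responses are in fact genes that 1 line barely expresses. Among the 1997, both DC90 libraries were under an FPKM of 1 in 192 members and both 9311 libraries in 125, together 317. Among all members there were 1480 of this kind. A gene that a line does not express shows no response there, and the other line's response then becomes the whole difference. With an FPKM of at least 1 required in each line, 762 upward and 918 downward differences were counted, and the upward share was 45.4% as before.

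One identifier stands here for each of the 4 kinds in which a single line passed 2-fold. Each has the largest difference of its kind among those with an FPKM of at least 10 in their highest library. BGIOSGA038872 was listed at 0 in DC90 at 36 h and at 0 in DC90 at 0 h, against 4.88 in 9311 at 36 h and 53.4 in 9311 at 0 h. It had reads in 9311 only, where it was 10.9-fold lower at 36 h than at 0 h, with a 95% counting interval of 8.16 to 15.0. BGIOSGA013206 was at 16.3 in DC90 at 36 h and 2.48 in DC90 at 0 h, against 0 in both 9311 libraries. It had reads in DC90 only and was 6.60-fold higher there at 36 h (interval 4.34 to 10.4). In each case the line listed at 0 has no response to compare, its value of 0 comes from the pseudocount, and the difference is the response of the other line alone.

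BGIOSGA037654 was at 36.7 in DC90 at 36 h and 29.0 in DC90 at 0 h, against 30.6 in 9311 at 36 h and 0 in 9311 at 0 h. A single library, 9311 before chilling, stands apart, and the other libraries hold 55 to 64 reads. With that library set at 3 reads in place of 0, the ratio of 36 h over 0 h in 9311 was 19.8, a lower bound and not an estimate. The ratio in DC90 was 1.26 (interval 0.870 to 1.84). The value of 19.8 takes the 55 reads of 9311 at 36 h as exact and has no interval. Of the 4, only BGIOSGA015210 was detected in all libraries. It was at 1.87 in DC90 at 36 h and 12.4 in DC90 at 0 h, against 9.84 in 9311 at 36 h and 5.31 in 9311 at 0 h. The order of the lines was thus reversed by 36 h, with DC90 lower than 9311 there and higher before chilling. It was 6.63-fold lower at 36 h in DC90 (interval 3.61 to 13.3) and 1.85-fold higher in 9311 (interval 1.22 to 2.84). The ratio of 36 h over 0 h was 12.3-fold lower in DC90 than in 9311 (interval 5.69 to 27.6). These intervals cover counting error only, not the variation between pools of plants. They also make no allowance for the choice of each identifier as the largest difference of its kind. The ratios are therefore a description of picked extremes.

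**Figure D3:**
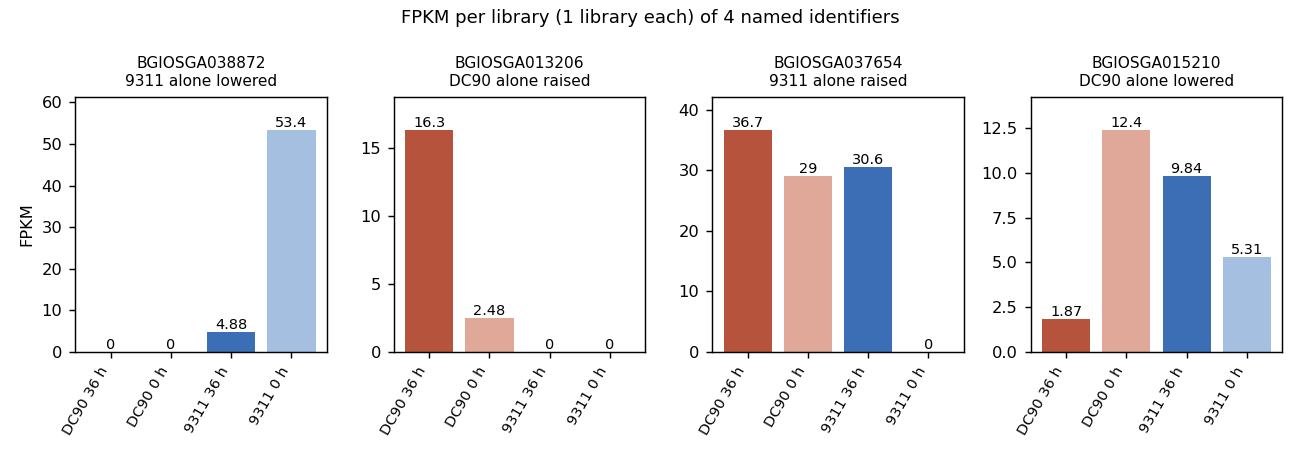
FPKM of BGIOSGA038872, BGIOSGA013206, BGIOSGA037654 and BGIOSGA015210 in each of the 4 libraries (1 bar is 1 library, with no error bar since groups have no replicate). Bars at 0 mark libraries in which the identifier is listed at 0, and only BGIOSGA015210 has a bar above 0 in every library.

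Genes with a strong response in both lines mostly responded less in DC90. Among 2512 members raised past 2-fold in both lines, the DC90 response was the smaller one in 1567, or 62.4%, and the median difference was -0.11. Among 2782 lowered in both, it was the smaller one in 1758, or 63.2%, and the median difference was 0.14. For comparison, DC90 had the smaller response in 56.6% of all members and in 1276 (63.9%) of the 1997 differences past 2-fold. With at least 1000 reads in the deepest library the shares were 64.8% of 704 raised and 69.9% of 468 lowered members. The size of the contrast was also read against the mean of both responses. The difference and this mean are built from the same responses, whose SD was 1.08 in DC90 and 1.20 in the other line. The signs of medians in bins of the mean follow in part from that wider spread, so they are not a separate result. What made the spread wider was not tested.

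In bins of the mean response, the median difference lay below 0 for genes raised past 2-fold and above 0 for lowered ones. Members with a mean response of 1 to 2 had a median difference of -0.09, those of 2 to 3 had -0.35, and those of 3 to 4 had -0.58. Above 4 the median was -0.46 over 107 members. The share at least 2-fold below was 8.67% at a mean response of 1 to 2, and 15.2%, 29.8% and 24.3% in the bins above it. Beyond 2 the medians on the raised side were thus larger in size than at 1 to 2. On the lowered side the median was 0.18 both for -2 to -1 and for -3 to -2. It was 0.39 over 139 members from -4 to -3 and 0.10 over 44 members below -4. Members with a mean response of at least 2 numbered 833, with a median response of 2.50 in DC90 and 2.90 in 9311. The 791 with a mean response of at most -2 had a median response of -2.43 in DC90 and -2.60 in 9311. The signs of both medians held under every alternative run, with ranges of -0.46 to -0.32 for raised and 0.15 to 0.27 for lowered members.

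**Figure D4:**
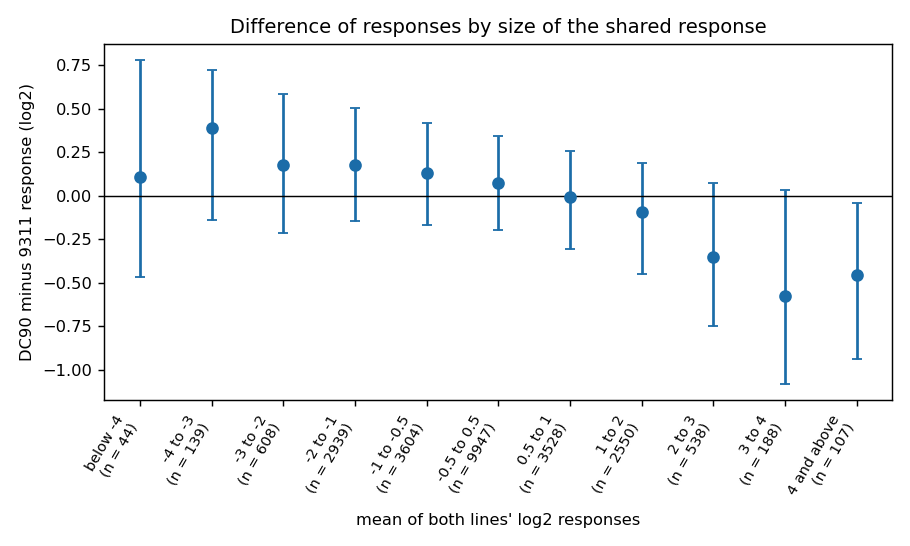
Median difference of responses (points, DC90 minus 9311, log2) with quartiles (bars) in bins of the mean of both lines' responses, with the number of members under each bin. The medians lie above 0 for lowered genes and reach -0.58 for genes with a mean response of 3 to 4.

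A line difference can be present before chilling, after it, or at both times. The difference of responses equals the line difference at 36 h minus the line difference at 0 h. Across all members, DC90 was at least 2-fold higher than 9311 in 1.7% and lower in 3.38% at 36 h, and higher in 1.5% and lower in 1.77% at 0 h. Of the 1997 differences, 637 (31.9%) had a line difference past 2-fold at 36 h alone and 328 (16.4%) at 0 h alone. In 941 (47.1%) the lines were within 2-fold of each other at both times, and in the rest they differed past 2-fold at both times, in opposite directions for 36 and in 1 direction for 55. Of the upward differences, 202 (22.3%) had a line difference past 2-fold at 36 h alone and 174 (19.2%) at 0 h alone. Of the downward ones, 435 (39.9%) had it at 36 h alone and 154 (14.1%) at 0 h alone. A line difference under 2-fold at the other time can still add to these differences. Those 435 had a median FPKM of 3.58 at 36 h and 2.57 at 0 h in DC90, against 12.1 at 36 h and 2.48 at 0 h in 9311. Their medians were level before chilling, and 9311 had the higher one after it, which follows largely from how these members were selected.

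Genes near 0 at 1 of the times were counted as well. Under an FPKM of 1 at 0 h in both lines and at least 2 at 36 h in both were 320 members. The limit of 2 was passed in DC90 alone, with 9311 under 1, by 27 members, and in 9311 alone, with DC90 under 1, by 76. Of genes at 2 or more in both lines at 0 h, 417 were under 1 at 36 h in both. At 36 h, 40 were under 1 in DC90 while still at 2 or more in 9311, and 53 were under 1 in 9311 while still at 2 or more in DC90. With a limit of 5 in place of 2, 120 members were switched on in both lines, 2 in DC90 alone and 13 in 9311 alone, and 98 were switched off in both and 0 in either line alone. These limits were chosen after the data were seen.

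In total expression the downward set stood out in 9311 after chilling. The 1091 members with a downward difference made up 2.79% of the members' summed FPKM in DC90 at 36 h and 2.57% in DC90 at 0 h, against 5.04% in 9311 at 36 h and 1.68% in 9311 at 0 h. The 906 members with an upward difference made up 1.75% at 36 h and 1.77% at 0 h in DC90, against 0.992% at 36 h and 2.66% at 0 h in 9311. The shares hardly moved in DC90 and moved in opposite directions in 9311. This follows in part from how the sets are defined.

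The share of genes past 2-fold was lower among more abundant genes, more so for upward differences. Members with a mean FPKM under 1 over the 4 libraries passed upward in 7.20% and downward in 7.51%, on a median of 14 reads in the deepest library. Between 20 and 50 the shares were 2.08% and 2.94%, on a median of 499 reads. At 100 and above they were 1.81% and 3.73%. The upward share of the differences was 49.0% in the lowest of these bins and 32.7% in the highest. The SD of the difference was 0.69 under 1 and 0.48 at 100 and above.

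Short genes differed between the lines' responses more often than long ones. The members were put in 4 length classes of equal size. Each length is the smallest that gives whole reads, so some genes may stand in too short a class. The part of this in the shares was not tested. In the class with coding lengths of 22 to 591 bases, 5.80% passed upward and 9.53% downward. In the class of 1566 to 15075 bases, 1.85% passed upward and 1.31% downward. Median expression was similar, at a mean FPKM of 13.3 in the shortest and 11.2 in the longest class, but the median reads of the deepest library were 82 and 379. Among members with at least 1000 reads, the shares past 2-fold in either direction were 7.43% in the shortest class, 8.64% and 4.56% in the next ones and 3.37% in the longest, so they did not follow length step by step. Upward alone they were 1.95%, 3.40%, 2.17% and 1.80%, with little between the shortest and the longest, and downward alone 5.49%, 5.24%, 2.39% and 1.57%. Short and long genes also differed in sign. The median difference of responses was -0.07 in the shortest class, 0.02 and 0.07 in the next ones, and 0.14 in the longest. With at least 1000 reads the same medians were -0.12, -0.03, 0.03 and 0.12.

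Among all members, the trend with length was visible between the libraries at both times. In the shortest class, DC90 was above 9311 by a median of 0.02 at 36 h and 0.10 at 0 h. In the longest class, the median line difference was 0.09 at 36 h and -0.06 at 0 h. The line difference was thus higher in long than in short genes at 36 h and lower at 0 h. With at least 1000 reads, its medians at 36 h were 0.04, 0.05, 0.03 and 0.05 from the shortest to the longest class. At 0 h they were 0.18, 0.07, -0.003 and -0.07. In those members the trend with length was thus seen at 0 h and hardly at 36 h. The part of such library-wide trends with length in the differences of responses was not tested. The smaller response of DC90 in strongly raised genes was seen in each length class, with medians from -0.49 in the shortest to -0.31 in the longest among members with a mean response of at least 2. For a mean response of at most -2 the medians were -0.02 in the shortest class and 0.26, 0.39 and 0.33 in the longer ones, so the shortest lowered genes stood near 0.

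**Figure D5:**
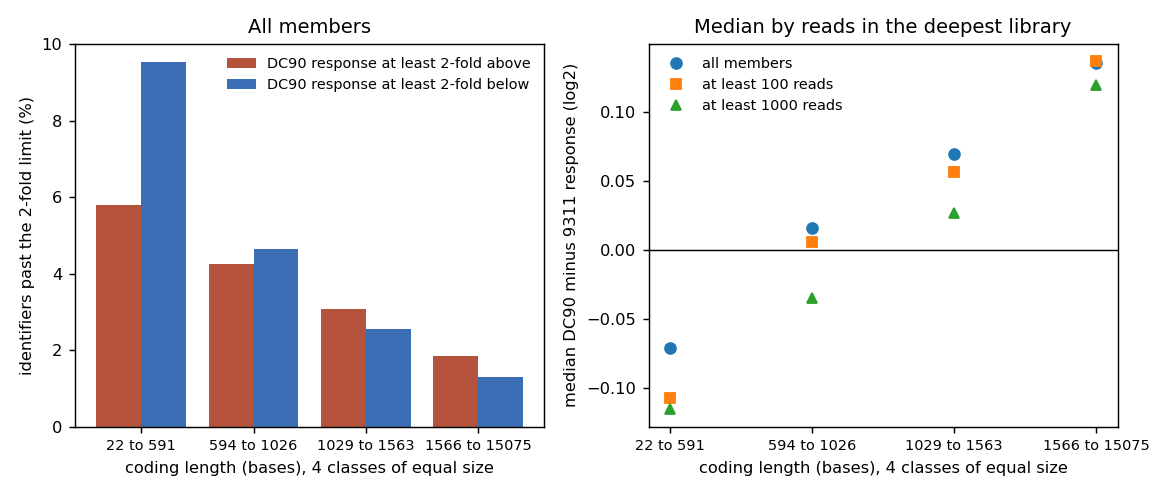
Left, percentage of members in each of 4 classes of coding length whose DC90 response was at least 2-fold above or below that of 9311. Right, median difference of responses (log2) by length class for all members and for those with at least 100 or 1000 reads in the deepest library; each set runs from below 0 in the shortest class to above 0 in the longest.

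In order of identifier number, differences of responses were spread widely. In windows of 50 members the mean was 1.87 upward and 2.25 downward differences, and the fullest windows held 8 and 9. In 7 stretches of identifier numbers the lines differed at both times in many members, and of the 745 members there 61 (8.19%) passed upward and 41 (5.50%) downward. Elsewhere 3.60% and 4.48% passed. The stretches were set from the same 4 libraries (windows with at least 7 members in which DC90 was past 2-fold on 1 side of 9311 at 36 h and at 0 h), so these shares are a description. BGIOSGA013206, with reads in DC90 only, lies in one of them.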

How the data were processed

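The authors deposited 1 table of FPKM values for 4 libraries, per the labels and the table's header; the submitters' processing notes list HTSeq 0.6.1. Aligner, genome build and annotation: not given in the sources used here. RNA of 3 replicates was pooled per library, per the labels' protocols. Library totals, coding lengths and whole reads were recovered from the steps of the FPKM values (tolerance 1e-07, lengths up to 30000); a length was found for 34043 of 34043 identifiers above 0 (100%), and the reads came to 97.6% to 97.7% of each total. These are the smallest reads and lengths that give the values, so some intervals are too wide and some lengths may be too short. Of members' lengths, 99.1% were multiples of 3. The recovery and the size rule were tested on simulated data. Counting intervals are exact conditional (95%), and a library at 0 was set at 3 reads per library. The named identifiers are the largest differences of 4 kinds with an FPKM of at least 10. Members, lists and rules were chosen with earlier results of these data known. Alternatives were a pseudocount of 0.1 (also with no filter on low values), a minimum FPKM of 5 in any or of 1 in all libraries, 2 rescalings, at least 20 or 100 reads, a 4-fold limit and the addition of EPlOING identifiers. Python 3.11.15, pandas 2.3.3, NumPy 2.4.6 and SciPy 1.17.1 were used.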

Additional observations from a re-analysis of the deposited data

Results flagged for a closer look

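In 14 BGIOSGA identifiers the response was past 2-fold upward in one line and past 2-fold downward in the other, and this difference was not tested, with 1 library per line and time. In 6 of them DC90 was raised and 9311 lowered, with differences of responses from 2.23 to 3.13 on at most 24 reads in the deepest library. In 8 of them DC90 was lowered and 9311 raised, with differences from -3.20 to -2.29 on up to 201 reads. At least 20 reads were reached by 6 of the 14. BGIOSGA015210, at -3.00, also moved in opposite directions, though not past 2-fold in 9311.

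Median responses of the lines had opposite signs in 3 sets of genes by length, again untested. In the third length class of all members the median difference was 0.070, from a DC90 median of 0.04 and a 9311 median of -0.07. In the second class of members with at least 1000 reads it was -0.035, from -0.05 in DC90 and 0.01 in 9311. In the shortest class of members with a mean FPKM of 20 to 50 it was -0.077, from -0.05 in DC90 and 0.03 in 9311. These signs rest on small medians that a rescaling of the libraries moves by as much: with equal FPKM sums the median over all members was 0.10 in DC90 and -0.02 in 9311, against 0.01 and -0.05 as deposited, and with median-of-ratios factors both were 0.

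EPlOING identifiers lie outside the members. Of the 47 with at least 100 reads, 8 passed 2-fold on the difference of responses, 7 upward and 1 downward, which is 17.0%, against 909 (5.67%) of the 16041 members with at least 100 reads, 383 upward and 526 downward. Over all 3521 EPlOING identifiers with an FPKM of at least 1, 1136 passed upward and 957 downward. That is 59.4%, against 8.25% of the 24192 members. Only 363 of the 3521 had at least 20 reads in the deepest library. Of those 363, 28.4% passed, against 7.19% of the members with at least 20 reads.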

How the results depend on the processing

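With 1 pooled library per line and time, leaving out a library leaves no difference of responses. No paired analysis was possible because the difference of responses takes all 4 libraries and leaves no residual degree of freedom; pairing the times within lines gives the effect of time, not this difference. The counts were higher where low values were let in and lower where they were left out. The smaller DC90 response in most differences, and the signs of the medians in strongly raised and strongly lowered members, held under all settings run; which direction was more frequent did not. As reported, DC90 had the smaller response in 63.9% of the 1997 differences, against 56.6% of all members. Under the other settings the share of the differences ranged from 57.9% to 71.0%, and the share of all members was not computed. The medians do not use the limit on the difference and were not rerun at 4-fold. Values per setting are given as upward and downward differences, then those with DC90 alone raised, DC90 alone lowered, 9311 alone raised and 9311 alone lowered, then those with a line difference at 36 h alone and at 0 h alone. The shares are upward differences and differences with the smaller response in DC90, and the medians are for members with a mean response of at least 2 and of at most -2.

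A pseudocount of 0.1 gave 1941 and 1790, then 365, 407, 515 and 650, then 1352 and 793, an upward share of 52.0% and a lowered median of 0.27. Without the low-value filter as well, the counts were 3458 and 3197, then 896, 972, 1077 and 1326, then 2549 and 1960; the shares were 52.0% and 57.9% and the medians -0.32 and 0.26. FPKM of at least 5 in any library gave 583 and 795, then 108, 160, 272 and 224, then 443 and 204, with shares of 42.3% and 67.2%. FPKM of at least 1 in all libraries gave 527 and 666, then 100, 150, 229 and 183, then 350 and 154. Median-of-ratios factors gave an upward share of 38.5% and medians of -0.46 and 0.15, and equal FPKM sums gave 51.9%, -0.33 and 0.26.

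At least 20 reads gave a share of 66.1% with the smaller response in DC90. At least 100 reads gave 383 and 526, then 65, 92, 176 and 136, then 299 and 109, with shares of 42.1% and 71.0%. A 4-fold limit on the difference of responses gave 53 and 132, then 19, 30, 63 and 20, then 95 and 45. The shares were 28.6% and 69.2%. The limits for a single line's response and for a line difference stayed at 2-fold there. With EPlOING identifiers the counts were 2042 and 2048, then 710, 494, 882 and 707, then 1638 and 1011, with shares of 49.9% and 58.1%. Requiring an FPKM of at least 1 in each line, chosen after the data were seen, moved no count past 1.5 times. Of 130 values under the alternatives, 57 stayed near the reported ones (counts within 1.5 times, shares and medians within their 95% binomial interval). The causes of these shifts were not tested beyond what each setting keeps or leaves out.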
